A study of Mus musculus with 6 samples.

Results

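The clade B serpins described here are 9 genes of the intracellular serpin family: Serpinb9b, Serpinb9, Serpinb6b, Serpinb1b, Serpinb1a, Serpinb6a, Serpinb5, Serpinb2 and Serpinb8. They were chosen by symbol from a table of 19938 genes measured on Affymetrix mouse arrays. Where a gene had several probe sets, the brightest by mean log2 signal of the 6 arrays was used, and each of the 9 had only 1. The log2 changes between transgenic and control crypts were known from earlier results when the 9 were listed, and Serpinb9b was already among the largest increases. How many of the 9 changed is therefore a description of these genes, not independent evidence about the family.

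RNA came from uncultured crypts, the pockets of the gut epithelium in which stem cells renew the lining, released from the washed intestine with EDTA. The control group was 3 mice whose genotype is labelled only as control, and the YAP Tg group was 3 mice carrying, by the series title, YAP-S127A with Villin-rtTA. YAP is a coactivator of transcription, and the S127A form has lost a serine by which Hippo kinases restrain it. The Villin promoter directs the doxycycline-dependent activator rtTA to intestinal epithelium. Doxycycline was given for 2 days, in a design text that names mice without separating the groups; the labels do not say which transgenes the controls carried. The labels name no age, sex or strain.

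Serpins inhibit proteases by offering an exposed loop as bait; the protease cuts it and is trapped by a change in the serpin's shape. Clade B members lack a classical secretion signal and mostly act inside the cell, where they protect it against proteases released from its own granules or delivered by others. Some mouse members block granzymes, the serine proteases that cytotoxic lymphocytes inject into target cells with the help of perforin. Intestinal epithelium is densely populated by such intraepithelial lymphocytes.

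The arrays differed at the probe sets taken, by their numbers alone, to be array controls, and whether these measure background was not tested. Among 6617 probe sets treated as array controls, the median was 4.97 ± 0.013 (SD, n = 3) on control and 5.17 ± 0.15 on transgenic arrays, which is 0.196 higher on the log2 scale; it was 5.33, 5.15 and 5.03 on transgenic arrays 1, 2 and 3. It serves below as a guide to which signals are dim. All 12 markers of intestinal epithelium fixed for this tissue had a mean above it, among them Vil1, the gene of villin (12.41 in control and 12.51 in transgenic crypts), and Epcam (11.67 and 11.85). Transgenic mouse 1 held the highest of the 3 transgenic values for 57.7% of all genes called higher and transgenic mouse 2 the lowest for 53.6%.

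Of the 9 serpins, 7 rose in the transgenic crypts and none fell, by limma at an adjusted p below 0.05. Over all genes, 7.50% were called higher, 6.70% lower and 14.2% either way. Where arrays were instead centred on the array controls, a choice made after seeing the data, 951 genes were higher and 2683 lower against 1495 and 1336 as deposited, since this moved the median change of all genes from 0.03 to -0.17; 6 of the 7 serpins were still called higher. For 8 of the 9 serpins every transgenic value exceeded every control value, as it did for 16.5% of all genes. The median log2 change of the 9 was 1.08, with a range of 0.14 to 4.56, beside a median of 0.03 over all genes. Leaving out a control cost more calls than leaving out a transgenic mouse. On dropping control mouse 1, 2 or 3 the calls numbered 2, 3 or 2, and on dropping transgenic mouse 1, 2 or 3 they numbered 6, 7 or 5. This order was not particular to the serpins. Over all genes, 674, 737 or 669 were called higher without control mouse 1, 2 or 3. Without transgenic mouse 1, 2 or 3, 1141, 2802 or 1068 were.

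The granzyme-inhibitor members, Serpinb9b, Serpinb9 and Serpinb6b, had the largest changes, and the sequence in front of each gene is shown because these 3 moved together. Each line gives the 250 bases before the annotated start in RefSeq (GRCm38.p6), 5′ to 3′ on the gene's strand, in lower case. Capitals mark the longest run of bases that the Serpinb9b and Serpinb9 windows share.
Serpinb9b (chr13:33027164-33027413, + strand): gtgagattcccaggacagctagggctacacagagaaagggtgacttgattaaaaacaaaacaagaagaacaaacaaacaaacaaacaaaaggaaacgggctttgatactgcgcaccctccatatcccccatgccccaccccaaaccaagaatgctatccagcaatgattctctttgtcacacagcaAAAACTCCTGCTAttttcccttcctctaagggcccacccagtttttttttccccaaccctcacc
Serpinb9 (chr13:33004291-33004540, + strand): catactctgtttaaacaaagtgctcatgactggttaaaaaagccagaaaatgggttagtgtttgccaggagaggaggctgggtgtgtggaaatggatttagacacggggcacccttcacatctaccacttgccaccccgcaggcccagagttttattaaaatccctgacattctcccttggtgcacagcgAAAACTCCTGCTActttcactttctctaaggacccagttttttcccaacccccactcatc
Serpinb6b (chr13:32965011-32965260, + strand): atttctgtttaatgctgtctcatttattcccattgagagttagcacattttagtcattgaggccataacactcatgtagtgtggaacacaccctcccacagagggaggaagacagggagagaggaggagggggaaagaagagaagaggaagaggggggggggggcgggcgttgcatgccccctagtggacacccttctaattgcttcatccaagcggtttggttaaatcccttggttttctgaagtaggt
The shared run is 13 bases long and begins 64 bases before the start of Serpinb9b and 60 before that of Serpinb9. Of 325 pairs of clade B windows, 15 share a run at least as long, and the median is 8 bases. The windows of Serpinb9 and Serpinb9b were 57% identical in a global alignment, which ranked 14 among the 325 pairs, where the median was 47.5%. Serpinb6b was 43.2% identical to Serpinb9 and 40.1% to Serpinb9b. None of the 3 windows held GGAATG, the core motif of the TEAD factors through which YAP binds DNA, on either strand. Nor did any of them hold TGANTCA, a loose form of the AP-1 motif.

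Serpinb9b encodes an inhibitor of granzyme M in mice. Its log2 signal was 5.71, 6.22 and 5.94 in control mice 1, 2 and 3 and 12.22, 9.11 and 10.23 in transgenic mice 1, 2 and 3. The groups did not overlap, and the lowest transgenic value still stood well above the highest control. The mean moved from 5.96 ± 0.26 (SD, n = 3) to 10.52 ± 1.58, a log2 change of 4.56 (SE 0.74) or 23.6-fold, with a 95% interval of 6.82 to 82.0-fold. Limma's adjusted p was 0.0122, and it rose to 0.0662, 0.0571 or 0.0651 without control mouse 1, 2 or 3, so the call was lost there although the log2 change stayed between 4.44 and 4.70. The change ranked 5 among the increases of all 19938 genes.

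Serpinb9 encodes the inhibitor of granzyme B, made by cytotoxic lymphocytes for their own protection and by other cells that resist them. Control mice 1, 2 and 3 stood at 6.52, 6.56 and 6.48, and transgenic mice 1, 2 and 3 at 11.37, 9.81 and 9.66. The controls were nearly equal and all transgenic values were far above them, with mouse 1 apart from the other two. Serpinb9 rose from 6.52 ± 0.04 to 10.28 ± 0.95 (SD, n = 3), a log2 change of 3.76 (SE 0.44) or 13.6-fold, with a 95% interval of 6.46 to 28.5-fold (adjusted p = 0.00416 by limma). It kept its call in each of the 16 other settings tried, with an adjusted p of at most 0.0334, and its change ranked 15.

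Serpinb6b encodes a granzyme A inhibitor of mice. Signals were 6.97, 6.85 and 7.04 in control mice 1, 2 and 3 and 11.26, 9.39 and 9.20 in transgenic mice 1, 2 and 3. As for Serpinb9, mouse 1 was the highest and mice 2 and 3 were close to each other, and the groups did not overlap. Serpinb6b rose from 6.95 ± 0.10 to 9.95 ± 1.14 (SD, n = 3), a log2 change of 3.00 (SE 0.53) or 7.98-fold, with a 95% interval of 3.27 to 19.5-fold (adjusted p = 0.0162 by limma). This call too failed on dropping control mouse 1, 2 or 3 (adjusted p = 0.0767, 0.0782 and 0.0754), with log2 changes of 2.94 to 3.04.

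**Figure D1:**
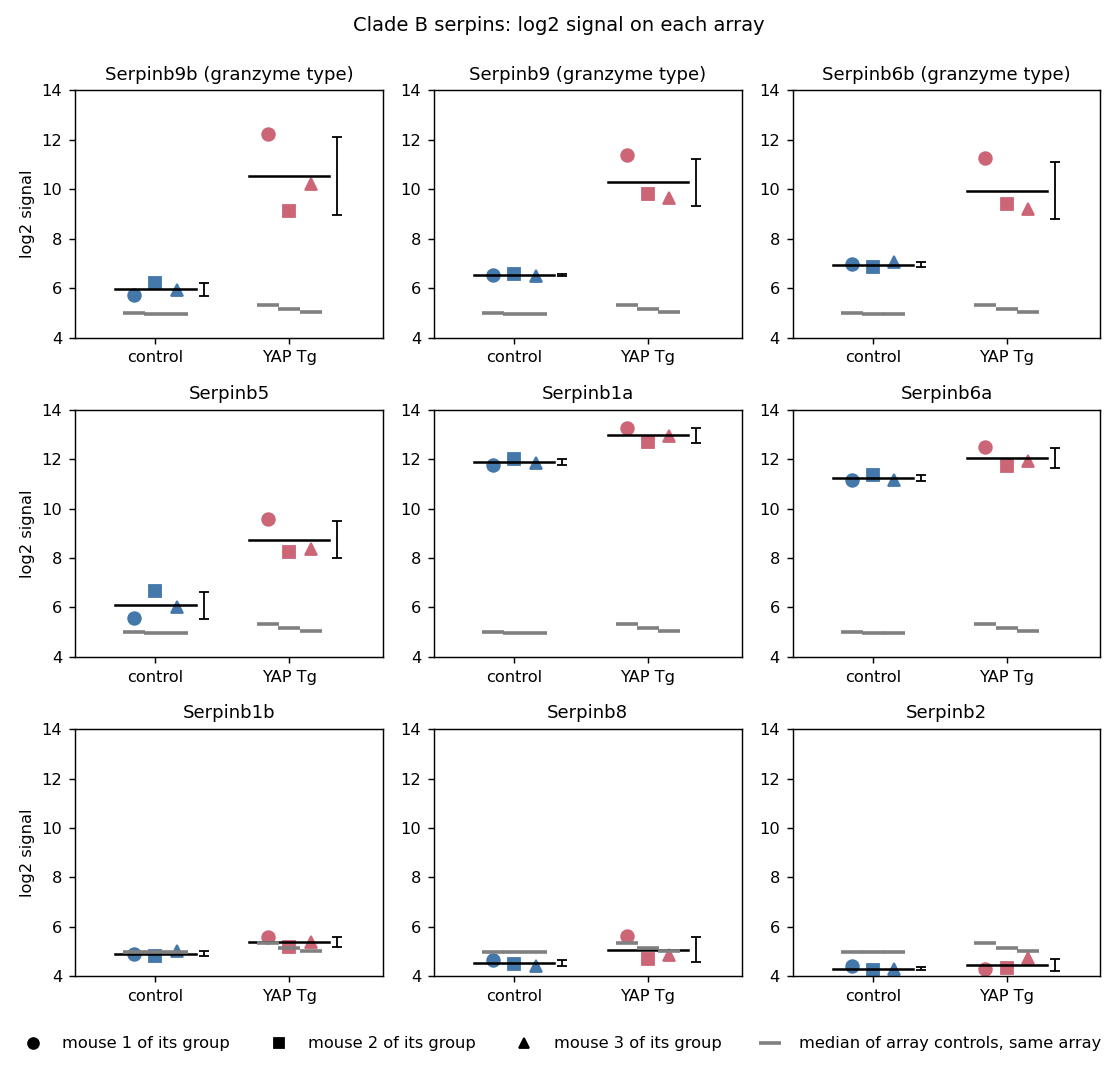
Log2 signal (vertical axis) of each of the 9 clade B serpins on the 3 control and 3 YAP Tg arrays; marker shapes give the mouse's number within its group, horizontal lines the group mean, bars the SD (n = 3) and grey dashes the median of the array controls on the same array. Serpinb9b, Serpinb9, Serpinb6b and Serpinb5 separate widely between the groups, Serpinb1a and Serpinb6a are bright in both, and Serpinb1b, Serpinb8 and Serpinb2 lie near or under the array controls.

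The 6 other members have other known targets or none, and 4 of them rose. Serpinb5, known as maspin, is an epithelial protein without protease-inhibiting activity that was described as a tumour suppressor. It stood at 5.59, 6.65 and 6.005 in control mice 1, 2 and 3 and at 9.59, 8.26 and 8.37 in transgenic mice 1, 2 and 3. The controls were spread more widely than for any other member, yet the groups did not overlap. It rose from 6.08 ± 0.53 to 8.74 ± 0.74 (SD, n = 3), a log2 change of 2.66 (SE 0.42) or 6.33-fold, with a 95% interval of 3.11 to 12.9-fold (adjusted p = 0.0114 by limma). It was not called on dropping control mouse 1 or 3 (adjusted p = 0.0581 and 0.0635).

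Serpinb1a and Serpinb6a were bright in both groups and rose less. Serpinb1a encodes an inhibitor of the neutrophil proteases elastase, cathepsin G and proteinase 3. Its signals were 11.76, 12.01 and 11.85 in control mice 1, 2 and 3 and 13.25, 12.69 and 12.94 in transgenic mice 1, 2 and 3, without overlap. The log2 change from 11.88 ± 0.13 to 12.96 ± 0.29 (SD, n = 3) was 1.08 (SE 0.16), or 2.12-fold with a 95% interval of 1.63 to 2.75-fold (adjusted p = 0.00817 by limma). With Serpinb9 it was the other member called in every setting, though barely so without control mouse 1 or 3 (adjusted p = 0.0498 and 0.049997).

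Serpinb6a, whose product inhibits cathepsin G, stood at 11.17, 11.36 and 11.15 in control mice 1, 2 and 3 and at 12.49, 11.73 and 11.93 in transgenic mice 1, 2 and 3. Mouse 1 was again the highest and the groups did not overlap. The log2 change from 11.22 ± 0.12 to 12.05 ± 0.39 (SD, n = 3) was 0.82 (SE 0.20), or 1.77-fold with a 95% interval of 1.27 to 2.47-fold (adjusted p = 0.0425 by limma). It was not called on dropping control mouse 1, 2 or 3 or transgenic mouse 3 (adjusted p = 0.157, 0.114, 0.154 and 0.103), or when all probe sets, named or not, were tested (0.0542).

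The remaining 3 members were dim. Serpinb1b, a close relative of Serpinb1a, stood at 4.90, 4.82 and 5.03 in control mice 1, 2 and 3 and at 5.60, 5.19 and 5.41 in transgenic mice 1, 2 and 3; it exceeded the array controls' median on its own array on 4 of 6 arrays. The groups did not overlap, and the log2 change from 4.92 ± 0.10 to 5.40 ± 0.21 (SD, n = 3) was 0.48 (SE 0.12, adjusted p = 0.0487 by limma). The array controls were themselves higher on the transgenic arrays; centred on them, the change was 0.29 (adjusted p = 0.195). The call was also lost on leaving out any one array but that of transgenic mouse 2 (adjusted p up to 0.175) and when all probe sets, named or not, were tested (0.0605).

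Serpinb8, whose product can inhibit the proprotein convertase furin, stood at 4.65, 4.52 and 4.42 in control mice 1, 2 and 3 and at 5.64, 4.71 and 4.86 in transgenic mice 1, 2 and 3. Only transgenic mouse 1 exceeded the array controls' median on its own array. The log2 difference of 0.54 (SE 0.24, 95% interval -0.06 to 1.13) did not pass limma's test (adjusted p = 0.200). Serpinb2, or plasminogen activator inhibitor 2, stood at 4.40, 4.26 and 4.28 in control mice 1, 2 and 3 and at 4.31, 4.32 and 4.72 in transgenic mice 1, 2 and 3. These groups overlapped, no value exceeded the array controls' median on its own array, and the log2 difference of 0.14 (SE 0.13, 95% interval -0.18 to 0.45, adjusted p = 0.521 by limma) turned to -0.06 when arrays were centred on the array controls. For such dim probe sets a change in the transcript may not be visible on the array.

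Those motifs did occur in front of other members, and a short stretch around each match is shown with the match in capitals. In Serpinb1b and Serpinb6a the capitals mark GGAATG or its reverse complement, and in Serpinb5 and Serpinb8 TGANTCA.
Serpinb1b (chr13:33083985-33084014, + strand): agagcatagcctGGAATGgaggaacatgga
Serpinb6a (chr13:34002992-34003021, - strand): tcaagaagctgtCATTCCtaccaaaataat
Serpinb5 (chr1:106861023-106861053, + strand): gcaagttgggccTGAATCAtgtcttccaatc
Serpinb8 (chr1:107589971-107590001, + strand): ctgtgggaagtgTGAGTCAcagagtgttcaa
The TEAD motif begins 106 bases before the start of Serpinb1b and 215 before the upstream start of Serpinb6a. TGANTCA, the loose form of the AP-1 motif, begins 140 bases before the start of Serpinb5 and 23 before that of Serpinb8. Serpinb2 also holds it. Its N admits any base: the match reads TGAATCA in Serpinb5 and Serpinb2, and TGAGTCA in Serpinb8. Windows were found for 8 of the 9 members, all but Serpinb1a. Of the 8, 2 held the TEAD motif and 3 held TGANTCA in at least 1 window. Counted the same way, 14.4% and 7.82% of all 27025 genes with a window held them, and among 18 other clade B serpins 4 held the one and 4 the other. These are matches of letters and show no binding, and a site farther from the start lies outside the window.

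The granzyme-inhibitor and other members were set side by side within each mouse. The mean difference from the control mean was 5.14, 2.96 and 3.22 on the log2 scale in transgenic mice 1, 2 and 3 for the 3 granzyme inhibitors. It was 1.32, 0.66 and 0.88 for the 6 others, with a mean of 0.95. Without Serpinb5 the mean over the remaining 5 was 0.61, and without the dim Serpinb1b, Serpinb8 and Serpinb2 it was 1.52 over 3, both choices made after seeing the data. In these differences the first group exceeded the second by 3.82, 2.30 and 2.34 in transgenic mice 1, 2 and 3. The controls gave -0.04 to 0.04, but centring on their own mean fixes their average. Before centring, the first mean minus the second was -0.68, -0.72 and -0.64 in control mice 1, 2 and 3. In transgenic mice 1, 2 and 3 it was 3.14, 1.62 and 1.66. The average gap after centring was 2.82. It was 2.32 to 3.08 with 1 mouse left out, 3.16 without Serpinb5 and 2.25 without the 3 dim members. The border between the types was narrow at single genes: the smallest granzyme inhibitor change, 3.00 for Serpinb6b with a 95% interval of 1.71 to 4.28, lay within the interval of Serpinb5, 1.64 to 3.69. No test is given for this gap, since the genes were grouped with their values known.

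**Figure D2:**
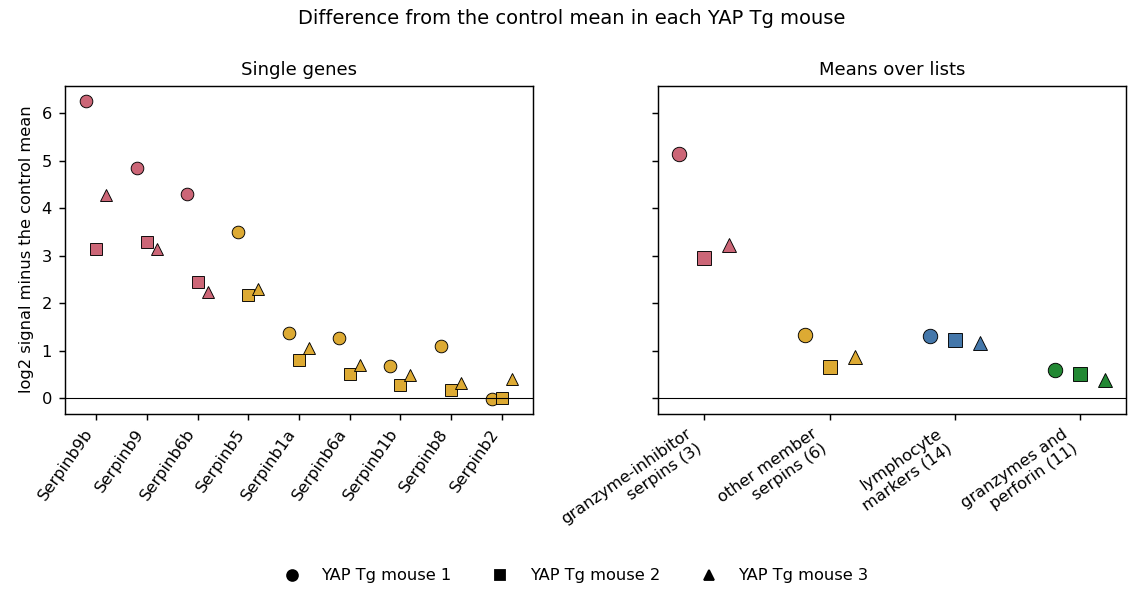
Log2 signal minus the control mean (vertical axis) in each YAP Tg mouse, for single serpins (left; red, granzyme-inhibitor type, yellow, other type) and as means over lists (right). Mouse 1 has the highest value for 8 of the 9 serpins, while the mean of the lymphocyte markers differs by 1.17 to 1.31 in all 3 mice.

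The transgenic mice varied more than the controls. Transgenic mouse 1 was the highest of the 3 for 8 of the 9 serpins, and transgenic mouse 3 for Serpinb2. Transgenic mouse 2 was the lowest for 6 of the 9, and mouse 3 for Serpinb9 and Serpinb6b. The SD among transgenic mice was 22.3 times that among controls for Serpinb9, 11.7 times for Serpinb6b and 6.12 times for Serpinb9b. For the 9 members the median ratio was 3.35, against 1.78 over genes called higher and 1.93 over all genes. Without transgenic mouse 1 the log2 changes of Serpinb9b, Serpinb9 and Serpinb6b were 3.71, 3.22 and 2.34.

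Markers of T cells and intraepithelial lymphocytes were also higher in the transgenic crypts, by less than the granzyme inhibitors. Their mean rose by nearly the same amount in each mouse. Of 14 measured, 12 rose and none fell, with a median log2 change of 1.26 and a largest change of 2.37, for the natural killer receptor gene Klrd1, named after its value was seen. Named members with the smallest p were Ptprc, the pan-leukocyte gene of CD45 (1.32), Cd8a (1.46), Cd3d (1.59) and Cd3g (1.72); Cd3e changed by 1.20. The mean over the 14 was 8.08 to 8.23 on control and 9.34 to 9.48 on transgenic arrays. In transgenic mice 1, 2 and 3 it exceeded the control mean by 1.31, 1.24 and 1.17, where the granzyme inhibitors exceeded theirs by 5.14, 2.96 and 3.22. Single markers were less even than this mean. Transgenic mouse 1 was the highest for 8 of the 14, and mouse 3 the lowest for 7. Klrd1 stood at 10.76, 9.85 and 10.13 in transgenic mice 1, 2 and 3. Cd8b1, named after its values were seen, stood at 8.35, 8.71 and 8.90. In such a bulk sample more cells of a type and more RNA per cell cannot be told apart. The part of lymphocytes in the serpins' change was not tested.

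The granzymes these serpins inhibit moved unevenly. Of 11 granzyme and perforin genes, 5 rose and none fell. Gzmb, the target of Serpinb9, stood at 10.99, 10.92 and 11.04 in control mice 1, 2 and 3 and at 12.76, 12.55 and 11.88 in transgenic mice 1, 2 and 3, a log2 change of 1.42 (SE 0.22, adjusted p = 0.0108 by limma). Gzma, the target of Serpinb6b, stood at 11.39, 11.13 and 11.29 and at 12.79, 12.71 and 12.40, a change of 1.36 (SE 0.13, adjusted p = 0.00204 by limma). The groups did not overlap for either gene, and transgenic mouse 3 was the lowest for both. Gzmm, the target of Serpinb9b, did not pass the test (6.17 in control, 6.26 in transgenic crypts, a difference of 0.09, adjusted p = 0.511). Gzmk (1.20) and the pore-forming Prf1 (0.74) also rose, and so did Gzme (0.40), which was dim and is named here in view of its value.

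**Figure D3:**
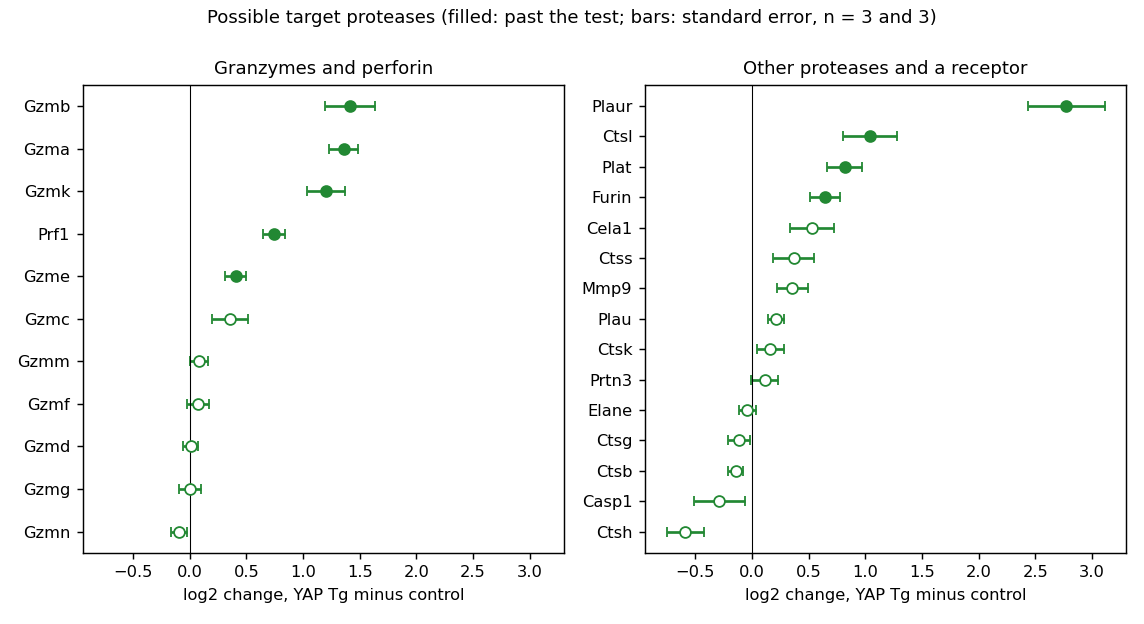
Log2 change, YAP Tg minus control (horizontal axis), of granzymes and perforin (left) and of other proteases and the receptor gene Plaur (right); bars are the standard error and filled points passed limma's test. Gzmb, Gzma and Gzmk changed by 1.20 to 1.42, while Elane, Ctsg and Prtn3 lie near 0.

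A list of 15 further genes held proteases matched to the other members, proteases matched to none of them, and a receptor gene. Of the 15, 4 rose and none fell, where 7.50% of all genes were called higher and 6.70% lower. The neutrophil protease genes matched to Serpinb1a and Serpinb6a did not pass the test: Elane differed by -0.04, Ctsg by -0.11 and Prtn3 by 0.11 (adjusted p = 0.749 by limma, 0.491 and 0.563). Furin rose by 0.65 (adjusted p = 0.0251). Of the plasminogen activators that Serpinb2 inhibits, Plat rose by 0.82 (adjusted p = 0.0199) and Plau differed by 0.21 (adjusted p = 0.106). Plaur, the urokinase receptor gene, changed the most in this list, by 2.77 (SE 0.34, adjusted p = 0.00469 by limma), and the lysosomal protease gene Ctsl rose by 1.04.

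Markers of other cells that carry clade B serpins were read in the same way. Of 14 myeloid and neutrophil markers 4 rose, Csf1r (0.85), Mrc1 (0.74), Cd68 (0.61) and Ly6g (2.01). Itgam, named after its value was seen, fell by 0.43. The other 9 did not pass the test. Among them were the neutrophil genes S100a8 (0.08), S100a9 (0.23), Mpo (-0.10) and Csf3r (0.05), also named with their values known. The list's mean was 6.08 to 6.10 on control and 6.27 to 6.52 on transgenic arrays. None of 8 mast cell markers passed the test, with list means of 5.83 to 6.35 and 6.18 to 6.54; the brightest, Mcpt2, differed by 1.24 (adjusted p = 0.176). Of 12 markers of squamous epithelium, where Serpinb5 is typically found, Sprr1a (1.09) and Krt6b (0.51) rose and none fell, with list means of 5.68 to 5.78 and 5.90 to 6.03. The basal cell genes Trp63 (5.87 and 5.94) and Krt5 (6.18 and 6.40) did not pass. None of 12 stromal and endothelial markers passed, with list means of 6.08 to 6.39 and 6.23 to 6.50; the brightest, Dcn, differed by 0.75 (SE 0.86). Of the 12 intestinal epithelium markers, 5 rose, among them Krt18 (1.53), Krt20 (1.09) and Cldn7 (0.42), and Cdx1 fell by 0.97. The part of these cells in the serpins' change was not tested.

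The rest of the family stayed dim. Of 20 other clade B serpins listed, 15 were measured by a probe set of their own, and limma called none of them, with none at an unadjusted p below 0.05 either; the 14 other settings that tested them also called none. Their log2 differences were -0.06 to 0.29 with a median of 0.03. None of their 90 values exceeded the array controls' median on the same array. Serpinb9e was the brightest (4.71 in control and 4.999 in transgenic crypts, adjusted p = 0.238), and 11 of the 15 had exactly equal values on at least 2 arrays. The absence of a call for these genes therefore does not show that their transcripts did not change. A further 3 probe sets were shared by Serpinb9d, Serpinb9e, Serpinb9f and Serpinb9g; they differed by 0.22, 0.26 and 0.29 and were not called. Members of this family are alike in sequence, and an array may not fully separate them.

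In RefSeq's gene order the family lies in a pair of clusters. The chromosome 13 cluster holds 16 of the listed clade B genes, and of its 13 measured ones 6 rose. All 6 are members, listed with their changes known, so the count is no independent evidence about the cluster. Serpinb6b, Serpinb9 and Serpinb9b follow one another among the clade B genes in this cluster, with Serpinb1c and Serpinb1a on one side and Serpinb1b on the other. Serpinb1c, between Serpinb1a and Serpinb6b, differed by 0.18 (adjusted p = 0.183 by limma). The chromosome 1 cluster holds 12 clade B genes, and of 11 measured 1 rose, Serpinb5, at its edge. Of the 25 nearest measured genes that are not serpins, up to 6 on each side plus 1 within, 3 were higher and 4 lower. By comparison, 7.50% of all genes were called higher and 6.70% lower. Nqo2, a quinone reductase gene inside the chromosome 13 cluster, fell by 1.23 (adjusted p = 0.0195 by limma). On that chromosome Slc22a23 (1.50) and Pxdc1 (1.37) rose, and Bphl (-0.79) and Tubb2b (-1.36) fell. Beside the chromosome 1 cluster the survival gene Bcl2 rose by 0.53 and the receptor gene Tnfrsf11a fell by 1.50.

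**Figure D4:**
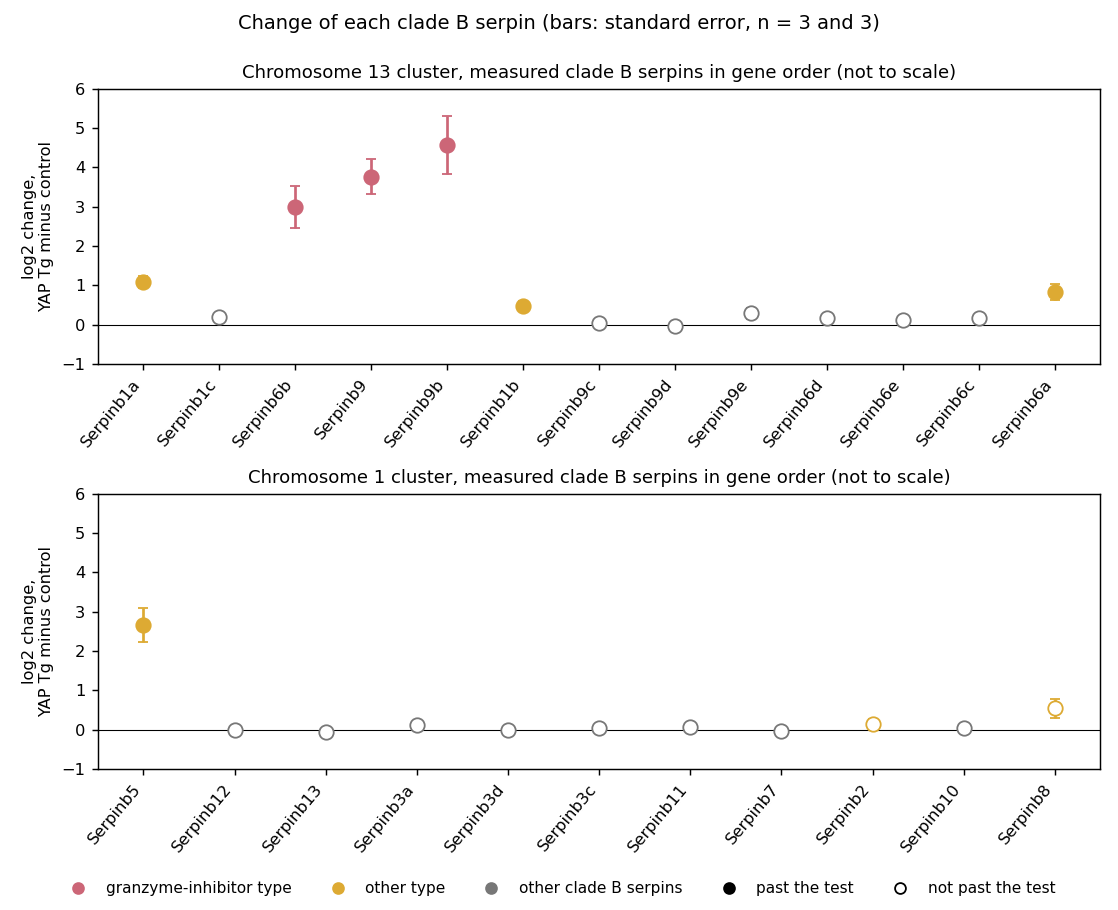
Log2 change, YAP Tg minus control (vertical axis), of the 24 measured clade B serpins in gene order along their clusters on chromosomes 13 and 1, with the standard error as bars (n = 3 and 3); filled points passed limma's test. The granzyme-inhibitor genes Serpinb6b, Serpinb9 and Serpinb9b are neighbours with changes of 3.00, 3.76 and 4.56, and the 15 other clade B serpins (grey) lie between -0.06 and 0.29.

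Genes with the most similar profile were sought for the 5 members that changed by at least 1, by the root mean square difference of log2 values centred on the control mean, over 6 arrays and 19929 other genes. For Serpinb9b they were Gml, Loxl4 and Psca, at 0.46, 0.51 and 0.58. Serpinb9 was closest to Dusp14 (0.19), Atp11a (0.26) and Psca (0.27), and Serpinb6b to Mucl3 (0.18), Tm4sf1 (0.28) and S100a6 (0.29). Serpinb5 was closest to Tmem140 (0.20), Trim15 (0.28) and Clu (0.29), and Serpinb1a to Sppl2a (0.04), Rnf19b (0.05) and Sertad3 (0.06). Psca is thus near both Serpinb9b and Serpinb9, with 11.08, 8.87 and 9.38 in transgenic mice 1, 2 and 3. The measure favours small changes, of which there are more to choose from, so it does not rank the members against each other.

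Of 10 genes listed as direct targets of YAP and TEAD, 6 rose and none fell, with a median log2 change of 1.64. The shares of all genes called were 7.50% higher and 6.70% lower. Over the 10 genes, 4 of them not called, the mean was nearly level among transgenic mice, unlike that of the 3 granzyme inhibitors. It was 8.45, 8.26 and 8.28 in mice 1, 2 and 3, against 6.71 to 6.82 in controls. Single genes can be less level than such a mean. Ccn1 changed by 4.49, Ajuba by 3.94, Lats2 by 1.65 and Amotl2 by 1.72. The difference in spread between the lists was not tested.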

How the data were processed

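The authors deposited log2 signals of 35556 probe sets for 6 arrays, 1 per mouse, made with Affymetrix Expression Console 1.1 per the submitters' processing notes; background correction, normalization and probe set summary are not stated in the sources used here. The deposited values, 1.99 to 14.4, fit a log2 scale. The 6617 probe sets numbered below the first annotated one were taken to be array controls and left out. Of 28939 others, 21789 had 1 gene symbol, 1621 several and 5529 were unlisted. Each of 19938 genes was represented by its brightest probe set.

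Transgenic minus control was tested with limma 3.58.1 in R 4.3.3 (lmFit, then eBayes; two-sided; no covariates), with Benjamini-Hochberg adjustment across the 19938 genes and a threshold of 0.05. The fit was tested on simulated data. Intervals are 95% from the same fit. With 3 arrays a group, the number of arrays limits the precision. Windows were aligned with Biopython 1.88.

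Members and lists were chosen with earlier results of these data known. Named genes were all members, up to 4 called genes per list by smallest p or else the brightest, fixed target and marker genes, called neighbours and the 3 nearest profiles per member changed by at least 1. Alternatives were each mouse left out, the replicate number as a block, normalizations, filters, priors, array weights, probe set averaging and testing of all probe sets.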

Additional observations from a re-analysis of the deposited data

How the results depend on the processing

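Of the 9 serpins, 7 were called higher, and 2 to 7 were with 1 mouse left out. With the replicate number as a block 4 were (Serpinb9b, Serpinb9, Serpinb6b and Serpinb1a). Same-numbered mice deviated from their group means with correlations of -0.131, 0.0124 and 0.0983 across genes. With 3 mice a group, these values cannot settle whether the numbers pair the mice. None of the 9 was called lower in the 16 other settings, of which the 2 filters on dim genes tested 7 and 6 of them. No other clade B serpin was called in the 14 settings that tested them; the 2 filters removed all 15. Serpinb9 and Serpinb1a were called in all 16. Serpinb1b lost its call in 8 of 15, Serpinb6a in 6, and Serpinb9b, Serpinb6b and Serpinb5 in 3 of 16 each; Serpinb1b, Serpinb2 and Serpinb8 were too dim for a filter at the median of all genes. Apart from Serpinb2, which reversed to -0.059 when arrays were centred on the array controls (an alternative added after seeing the data), each member kept its direction. The cause of the lost calls was not tested. Over all genes, 1495 were higher and 1336 lower; these became 975 and 727 with the block, 2459 and 3481 with array weights, 951 and 2683 with centring on the array controls, and 669 to 2802 and 369 to 3889 with 1 mouse left out. Dim signal limits what Serpinb1b, Serpinb8 and Serpinb2 can show.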

Other observations

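Genes of death receptors and caspases, through which granzymes and Fas ligand act on target cells, were measured for 8 of 10 listed. Of these, 4 rose and none fell, with a median log2 change of 0.56. Fasl, the ligand made by cytotoxic lymphocytes, changed by 1.37 (limma's adjusted p = 0.00744), its receptor gene Fas by 0.92 (adjusted p = 0.0106), Tnfrsf10b by 0.79 (adjusted p = 0.00926) and Casp8 by 0.54 (adjusted p = 0.0143). Bid, a substrate of granzyme B, differed by 0.56 and Casp6 by -1.19, and neither passed the test (adjusted p = 0.102 and 0.0768); both were named after their values were seen.

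Serpins of other clades, most of which are secreted, showed no increase that passed the test. Of 20 measured, 3 fell: Serpina1c, an alpha-1-antitrypsin gene (-1.27), Serpinf2, the gene of alpha-2-antiplasmin (-0.49), and Serpina9 (-0.39). Serping1, the C1 inhibitor gene, also named after its value was seen, differed by 0.96 with a wide standard error of 0.50 (adjusted p = 0.253). The median log2 change of these 20 was 0.05, beside 0.03 for the 15 other clade B serpins measured, all dim, and 0.03 over all genes. It was 1.08 for the 9 members, which were listed with their changes known.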
